A study of Mus musculus with 6 samples.

Results

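The 10 genes described here carry glucose into a cell, turn it into lactate and let the lactate out, and they were followed in oligodendrocyte lineage cells from Npc1-/- and WT mouse brain. They were chosen by symbol, as 1 gene for each of several steps and both main lactate dehydrogenase subunits: the glucose transporter Slc2a1, the glycolytic enzymes Hk1, Pfkm, Aldoa, Gapdh, Pgk1 and Pkm, the lactate dehydrogenase subunits Ldha and Ldhb, and the monocarboxylate transporter Slc16a1. These are 10 of the 55492 genes in the expression table, and all 10 passed the filter on low values. The symbols stand on 11 lines of that table, because another gene model named Aldoa was listed at 0.18 to 0.38 TPM and fell below the filter.

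Whole brains of 3 WT mice and 3 Npc1-/- mice aged 16 days (P16) were dissociated, and cells bearing the O4 antigen, a surface lipid of late oligodendrocyte progenitors (OPCs) and immature oligodendrocytes, were collected with magnetic microbeads and frozen. A single library of poly(A) RNA was made per mouse. NPC1 moves unesterified cholesterol out of late endosomes and lysosomes, and the Npc1-/- mice, homozygous for the Npc1 nih allele, lack it in every cell of the body and not only in the oligodendrocyte lineage. They were F1 hybrids of BALB/cJ and C57BL6/J parents heterozygous for that allele, and the WT mice were littermates. No mouse was treated, and bead selection enriches cells without making them pure. Npc1 was present at 45.5 to 53.3 TPM (a level per transcript length, scaled to the same total in every library) in the WT libraries and at 3.16 to 4.42 TPM in the Npc1-/- libraries, as the labels say.

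Glycolysis breaks glucose down to pyruvate in the cytosol, and lactate dehydrogenase converts pyruvate and lactate into each other. In white matter, oligodendrocytes are known to take up glucose and to hand lactate to axons through monocarboxylate transporters, while the endothelial cells of brain capillaries carry the same glucose and lactate transporters at high level. Maturing oligodendrocytes also draw on glucose carbon for the lipids of myelin.

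The largest RNA differences lay at both ends of the pathway, where the transporter genes Slc2a1 and Slc16a1 had lower values in every Npc1-/- mouse than in any WT mouse. The log2 differences of the 6 core enzymes lay between −0.17 and 0.21 on scaled TPM, but all 6 were below 0 after quantile normalization (−0.27 to −0.09) and on TPM as deposited (−0.54 to −0.17, where the median of all genes was −0.33). None of the 10 genes passed the test (limma, Benjamini-Hochberg adjusted p below 0.05), against 0.813% of the 15245 genes tested, 0.4% higher and 0.413% lower in Npc1-/-. At an unadjusted p below 0.05 there were 3 of them (Slc2a1, Slc16a1 and Ldhb), where 22.2% of all genes tested lay below that value, 10.6% higher and 11.6% lower in Npc1-/-. The groups did not overlap for 4 of the 10 genes, Slc2a1 and Slc16a1 lower and Ldhb and Gapdh higher in Npc1-/-. Of all genes tested, 27.5% had groups that did not overlap, 13.3% with Npc1-/- above and 14.2% below WT. Ldhb and Gapdh had the opposite sign on TPM as deposited, and their groups overlapped there and after quantile normalization. On TPM as deposited, without the size factors used below, 2 of the 10 genes were called lower (Slc2a1 and Slc16a1), and so were 5.71% of all genes, with 0.354% called higher and 6.06% in all. The median log2 difference, Npc1-/- minus WT, was −0.05 over the 10 genes and 0.01 over all genes tested. In bulk RNA, fewer cells of a type and less RNA per cell cannot be told apart.

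Levels here are TPM divided by a size factor for each library (the median of ratios over genes), which ran from 1.04 to 1.3 in WT and from 0.727 to 1.1 in Npc1-/-, and log2 differences are taken after adding 0.5. The libraries held an estimated 40500000 to 50000000 fragments. Oligodendrocyte markers were abundant in every library, and Mbp, which encodes myelin basic protein, alone made up 18.8 to 26.1% of TPM. Markers of other cells were present too: the summed level of 11 endothelial markers was 1056 to 1277 in WT and 567 to 873 in Npc1-/-, and that of 8 astrocyte markers was 449 to 525 and 302 to 551. The geometric means of the OPC and immature oligodendrocyte lists overlapped between the genotypes. That of 8 myelinating oligodendrocyte markers was 2174 to 2681 in WT and 2730 to 3387 in Npc1-/- on scaled TPM. None of these 8 was called, and their geometric means overlapped on TPM as deposited. The 5 erythroid markers summed to 4060 to 9514 in WT and 1763 to 6957 in Npc1-/-. Npc1-/- replicate 3 differed from the other 5 libraries in sex-linked RNA, with Xist at 15.6 TPM and the Y-linked Ddx3y at 0, against Xist of at most 0.01 TPM and Ddx3y of 14.4 to 23.6 TPM, and the labels give no sex. Without it the log2 differences of Slc2a1, Slc16a1 and the X-linked Pgk1 were −1.26, −0.71 and −0.014, and none of the 10 genes was called in limma. No marker of the 9 cell type lists was at 0 in all libraries of a group.

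**Figure D1:**
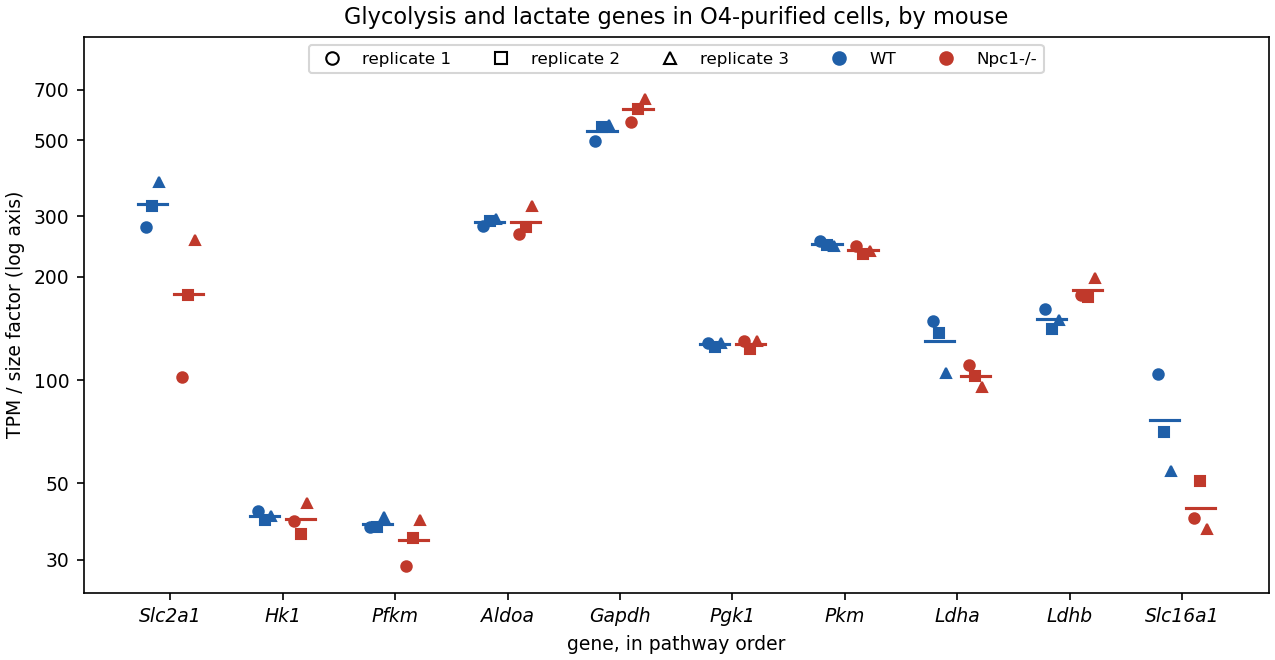
Level of each of the 10 genes in each library, as TPM divided by the size factor, on a log axis, with a marker for each mouse and a line for the group mean (n = 3 per genotype). Slc2a1 and Slc16a1 sit lower in all 3 Npc1-/- mice, and Ldhb and Gapdh higher on this scale. Ldhb and Gapdh overlap on TPM as deposited and after quantile normalization. The points of the other 6 genes overlap. Of these, Pfkm and Aldoa lie below WT without overlap on TPM as deposited, and Pfkm, Aldoa and Pkm after quantile normalization.

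Slc2a1 encodes GLUT1, the facilitative transporter that brings glucose across the blood-brain barrier and into glia. It lies at chr4:119108711-119137983 on the plus strand (GRCm38). Its level was 279, 322 and 377 in WT replicates 1, 2 and 3 and 102, 177 and 255 in Npc1-/- replicates 1, 2 and 3. The highest Npc1-/- mouse was below the lowest WT mouse, and the Npc1-/- mice differed among themselves more than the WT mice did, with a highest-to-lowest ratio of 2.49 against 1.35. The group means were 326 ± 49.2 and 178 ± 76.4 (SD, n = 3). The log2 difference was −0.95 (SE 0.31, 95% interval −1.68 to −0.22), with an adjusted p of 0.134 in limma. Of all genes tested, 1.06% had a lower log2 difference. On TPM as deposited, where the median over all genes was itself −0.33, the difference was −1.33 and passed the test (limma adjusted p = 0.00991). Without Npc1-/- replicate 1, the lowest library, the difference on scaled TPM was −0.60, smaller in size than that of Slc16a1 (−0.76).

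Slc16a1 encodes MCT1, which carries lactate, pyruvate and ketone bodies with a proton across the plasma membrane and is the main lactate carrier of oligodendrocytes and of capillary endothelium. It lies at chr3:104638668-104658462 on the plus strand and has a single annotated transcript. Its level was 104, 70.4 and 54.5 in the WT mice and 39.7, 50.9 and 36.9 in the Npc1-/- mice. Every Npc1-/- mouse was below every WT mouse, although WT replicate 3 and Npc1-/- replicate 2 lay close to each other. The means were 76.4 ± 25.5 and 42.5 ± 7.41 (SD, n = 3), a log2 difference of −0.80 (SE 0.24, 95% interval −1.36 to −0.24) with a limma adjusted p of 0.111. Of all genes tested, 2.37% had a lower log2 difference. On TPM as deposited the difference was −1.17 (limma adjusted p = 0.0451). Counting error was small beside the spread between mice, since an estimated 4024 to 17561 fragments per library stood behind these values, for a counting CV of 0.755 to 1.58%.

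The promoter windows of both transporters are shown because their levels lay apart between the genotypes in the same direction. As background, Slc2a1 is a known target of the hypoxia-inducible factors and Slc16a1 of Myc. Each is the 250 bases before the annotated start, 5′ to 3′ on the gene's strand (RefSeq, GRCm38.p6). Capitals mark ACGTG on either strand, the core of hypoxia response elements, and with a C before it the E-box CACGTG. Slc2a1 is chr4:119108495-119108744 and Slc16a1 is chr3:104638414-104638663, both on the plus strand.
Slc2a1: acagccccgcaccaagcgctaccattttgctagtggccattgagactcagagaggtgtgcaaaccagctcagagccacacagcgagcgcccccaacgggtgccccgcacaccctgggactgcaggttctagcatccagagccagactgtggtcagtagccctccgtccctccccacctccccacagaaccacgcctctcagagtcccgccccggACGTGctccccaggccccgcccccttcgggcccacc
Slc16a1: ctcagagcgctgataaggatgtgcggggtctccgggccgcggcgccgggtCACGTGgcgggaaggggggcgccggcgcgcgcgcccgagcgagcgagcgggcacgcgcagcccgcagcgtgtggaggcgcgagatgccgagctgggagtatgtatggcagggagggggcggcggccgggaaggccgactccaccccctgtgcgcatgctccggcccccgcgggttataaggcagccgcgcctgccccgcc

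The Slc2a1 window held 1 such stretch, starting 36 bases before the start site, and the Slc16a1 window held 1, starting 200 bases before it and forming a whole E-box. ACGTG on either strand was present in 16.6% of 32851 promoter windows of this length, and in 9 of the 18 windows annotated for the 10 genes. The GC box GGGCGG, searched on both strands, was present in both windows, in 32.7% of all windows and in 7 of those 18. Some of the 18 windows overlap, and the same ACGTG site of Aldoa was counted in each of its overlapping windows, so these counts are not of independent windows. A match of letters is a description of the window only.

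MCT1 reaches the membrane with basigin, a glycoprotein chaperone encoded by Bsg. Bsg was at 1518, 1091 and 1026 in WT and at 782, 864 and 767 in Npc1-/-. The groups did not overlap, and the log2 difference was −0.57 (SE 0.17, limma adjusted p = 0.116), past the threshold on TPM as deposited at −0.94 (limma adjusted p = 0.0330). Emb, which encodes embigin, the chaperone of related carriers, differed by −0.40 (limma adjusted p = 0.390) with overlapping groups.

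Markers of capillary endothelium were lower beside these transporters. All 11 endothelial markers were lower in Npc1-/- on average, and none passed the test. For 10 of them the groups did not overlap, against 14.2% of all genes tested with Npc1-/- below WT. The geometric mean level of the 11 markers was 82.1, 71.2 and 66.6 in WT and 35.9, 45.8 and 49.8 in Npc1-/-, a log2 difference of −0.75. All 5 pericyte markers were lower as well, with a summed level of 330 to 490 in WT and 199 to 251 in Npc1-/-, and 7 of 8 microglial markers were lower, with summed levels of 187 to 293 and 91.9 to 165. Of the microglial markers only Tmem119 passed the test. Relative to the endothelial geometric mean, Slc2a1 was 3.40, 4.52 and 5.67 in WT and 2.87, 3.88 and 5.14 in Npc1-/-. These ratios overlapped (log2 difference −0.20, exact two-sided permutation p = 0.6). The same ratio for Slc16a1 was 1.28, 0.995 and 0.825 in WT and 1.12, 1.12 and 0.751 in Npc1-/- (log2 difference −0.05, exact permutation p = 0.9). For Bsg it was 18.5, 15.3 and 15.4 in WT and 21.8, 18.9 and 15.4 in Npc1-/- (log2 difference 0.18, exact permutation p = 0.2). The smallest p that 3 against 3 mice allow is 0.1, so these permutation tests could not pass the threshold, and they do not show that the ratios are alike. The ratio of Slc2a1 was lower in Npc1-/- at each rank, lowest, middle and highest, and that of Bsg was higher at each rank. The ratio of Slc16a1 was lower at the lowest and highest rank and higher at the middle rank. The ratios were chosen after the values were seen, and the part of endothelial RNA in the transporter differences was not tested.

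**Figure D2:**
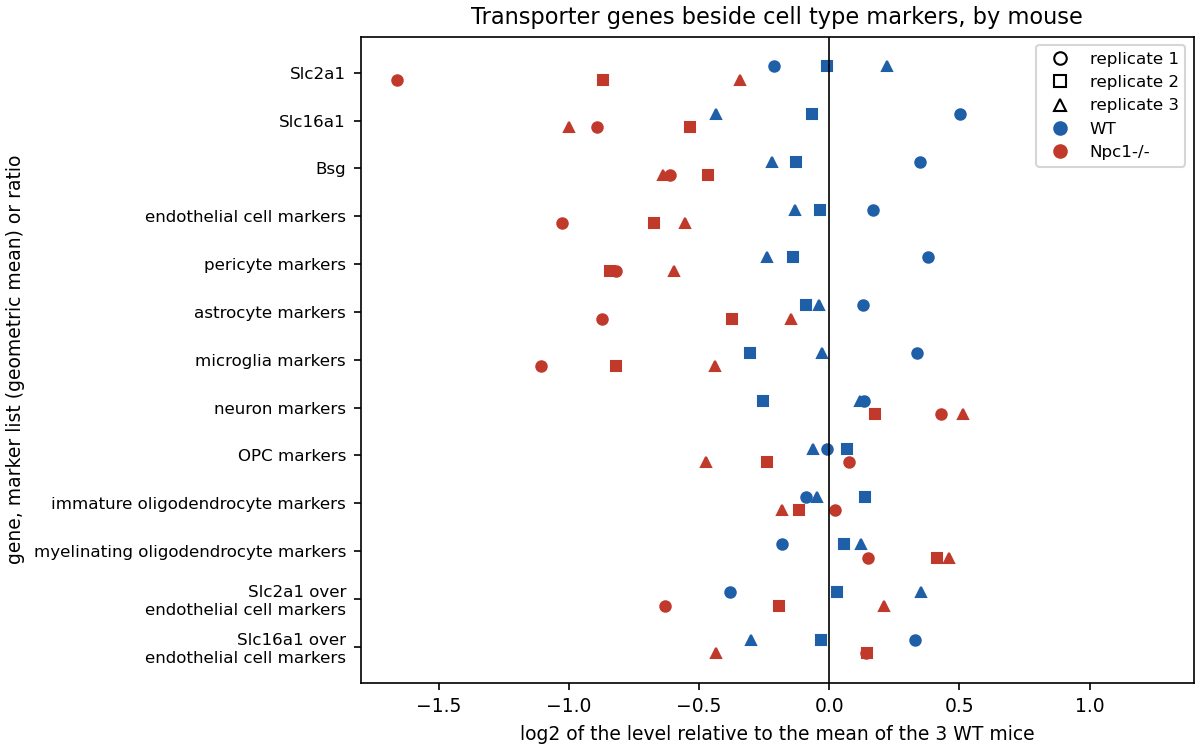
Levels of the transporter genes and Bsg, of each marker list (geometric mean) and of both transporters divided by the endothelial list, as log2 relative to the mean of the 3 WT mice, with a marker for each mouse. The levels of Slc2a1, Slc16a1, Bsg and the endothelial list are lower in all 3 Npc1-/- mice, and the ratios, chosen after the values were seen, run from 2.87 to 5.67 for Slc2a1 and from 0.751 to 1.28 for Slc16a1 over the 6 mice.

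Between the transporters, glucose is phosphorylated and split by a chain of cytosolic enzymes. Hk1 encodes the hexokinase that traps glucose in the cell and Pfkm the muscle-type subunit of phosphofructokinase, the main point of control. Aldoa splits the sugar, Gapdh and Pgk1 carry out the oxidation step and the first recovery of ATP, and Pkm makes pyruvate. The summed level of these 6 enzymes was 1238 to 1303 in WT and 1276 to 1431 in Npc1-/-, with overlapping groups.

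Hk1 (chr10:62268855-62379908, minus strand) was at 41.6, 39.2 and 40.2 in WT and at 38.8, 35.6 and 43.8 in Npc1-/-. The groups overlapped, with a log2 difference of −0.04 (95% interval −0.27 to 0.19, limma adjusted p = 0.869). Pfkm (chr15:98092589-98132451, plus strand) was at 37.3, 37.2 and 40.0 in WT and at 28.7, 34.6 and 39.1 in Npc1-/-. Its Npc1-/- mice reached lower but overlapped with WT, with a log2 difference of −0.17 (95% interval −0.46 to 0.12, limma adjusted p = 0.472). It was −0.050 without Npc1-/- replicate 1, the lowest library, and the groups did not overlap on TPM as deposited (−0.54) or after quantile normalization (−0.21).

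Aldoa (chr7:126795234-126800751, minus strand) was at 281, 290 and 294 in WT and at 267, 278 and 322 in Npc1-/-. The Npc1-/- mice lay on both sides of the WT mice, and the log2 difference was −0.00 (95% interval −0.25 to 0.24, limma adjusted p = 0.997). On TPM as deposited (−0.37) and after quantile normalization (−0.24) its Npc1-/- mice were below WT without overlap. Pgk1 (chrX:106187100-106203699, plus strand), which is X-linked, was at 129, 125 and 128 in WT and at 130, 123 and 130 in Npc1-/-. On scaled TPM it was the steadiest of the 10 genes between mice, with a highest-to-lowest ratio of 1.03 in WT and 1.05 in Npc1-/-. On TPM as deposited it was not, at 166.5, 138.5 and 133.0 in WT and 142.7, 105.4 and 94.1 in Npc1-/-. The log2 difference of Pgk1, 0.00 on scaled TPM (95% interval −0.18 to 0.18, limma adjusted p = 0.992), became −0.37 on TPM as deposited, near the median of all genes on that scale. Pkm (chr9:59656368-59679375, plus strand) was at 253, 248 and 246 in WT and at 246, 232 and 237 in Npc1-/-, with a log2 difference of −0.06 (95% interval −0.26 to 0.13, limma adjusted p = 0.720) and a small overlap of the groups. After quantile normalization Pkm differed by −0.27 without overlap.

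Gapdh (chr6:125161715-125166467, minus strand) was the most abundant of the 10 genes per transcript length in both genotypes. Its level was 496, 546 and 554 in WT and 566, 617 and 660 in Npc1-/-. Each Npc1-/- mouse was above each WT mouse on this scale, with a log2 difference of 0.21 (SE 0.11, limma adjusted p = 0.339), but the sign turned on TPM as deposited (−0.17) and after quantile normalization (−0.13), where the groups overlapped. Gapdh also has many processed copies in the mouse genome. The table held 266 genes annotated as pseudogenes that share at least 85% identity over at least 200 bases with it, and they summed to 262 to 357 TPM beside 479 to 642 TPM for Gapdh itself. Most of that sum was Gm13394 (chr2:28933610-28934609), at 318, 297 and 298 TPM in WT and 299, 252 and 236 TPM in Npc1-/-. How the reads were divided between gene and copies is uncertain, and with the copies added the log2 difference was 0.19 (limma adjusted p = 0.432). With a curve on transcript length removed from each library, it was 0.097 for Gapdh alone. Pgk1 had 7 such copies at 15.0 to 26.4 TPM in sum, in which Gm5537 ran from 0.02 to 24.5 TPM between libraries. Copies of Aldoa, Pkm, Ldha and Ldhb stayed at or below 1.18 TPM in sum, and Slc2a1, Hk1, Pfkm and Slc16a1 had none. Genes on the opposite strand overlap Slc2a1, Hk1, Pfkm, Aldoa and Gapdh, and whether strand was used in counting is not given in the sources used here.

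**Figure D3:**
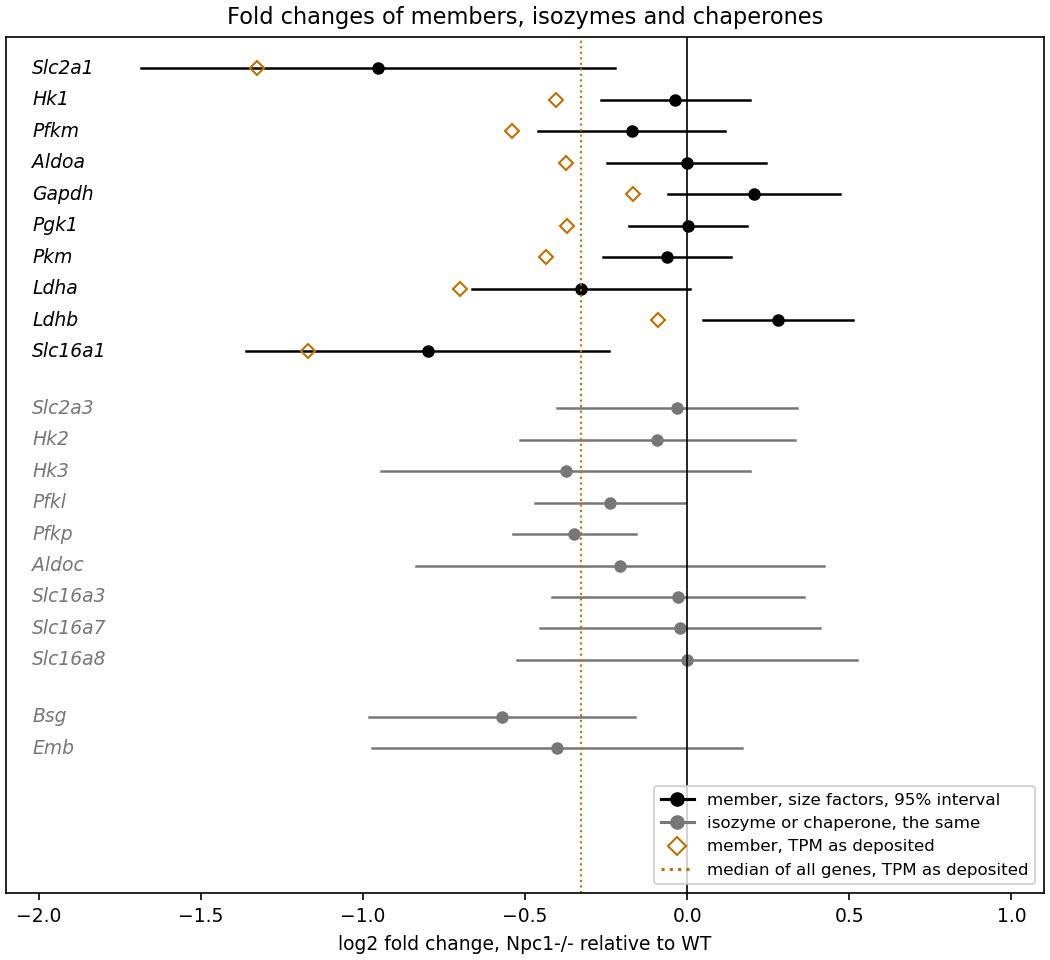
Log2 fold change, Npc1-/- relative to WT, of the 10 genes (black), their isozymes and the transporter chaperones (grey), with 95% intervals from limma on scaled TPM. Open diamonds give the 10 genes on TPM as deposited, where the dotted median of all genes was −0.33, Gapdh, Pgk1 and Ldhb change sign, and Slc2a1 and Slc16a1 remain lowest.

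The subunits of lactate dehydrogenase differed in opposite directions on scaled TPM, though both were below 0 on TPM as deposited. Ldha, the subunit known to favour the making of lactate, was at 149, 137 and 105 in WT and at 110, 103 and 95.4 in Npc1-/-. It lies at chr7:46841475-46855627 on the plus strand. WT replicate 3 lay within the Npc1-/- range, and the log2 difference was −0.33 (SE 0.14, limma adjusted p = 0.234). Ldhb, the subunit known to favour the use of lactate, lies at chr6:142490249-142507957 on the minus strand and was at 161, 140 and 149 in WT and at 176, 174 and 198 in Npc1-/-. All 3 Npc1-/- mice were above the WT mice on scaled TPM, with a log2 difference of 0.28 (SE 0.10, limma adjusted p = 0.154). It turned to −0.09 on TPM as deposited, above the median of −0.33 for all genes on that scale. After quantile normalization it was 0.14, and the groups overlapped on both of these scales.

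A share within a step does not depend on the scaling between libraries. Ldha made up 48.0, 49.4 and 41.3% of Ldha plus Ldhb in WT and 38.5, 37.0 and 32.5% in Npc1-/-. Every Npc1-/- mouse had a smaller Ldha share than every WT mouse. The means were 46.2% ± 4.35 and 36.0% ± 3.13 (SD, n = 3), a difference of −10.2 percentage points (exact two-sided permutation p = 0.1, the smallest that 3 against 3 mice allow, and 0.3 after adjustment over the 6 shares compared). The Ldha share lay apart between the genotypes, although the Ldha levels themselves overlapped, so the windows before the starts of these subunit genes are shown. They are given as for the transporters, with Ldha (the first of its 2 annotated starts) at chr7:46845554-46845803 on the plus strand and Ldhb at chr6:142507958-142508207 on the minus strand.
Ldha: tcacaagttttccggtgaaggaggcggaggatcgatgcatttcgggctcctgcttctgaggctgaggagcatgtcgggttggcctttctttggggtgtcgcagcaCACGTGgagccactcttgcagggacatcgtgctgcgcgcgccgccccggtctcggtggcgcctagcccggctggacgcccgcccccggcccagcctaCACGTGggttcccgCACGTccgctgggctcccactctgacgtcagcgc
Ldhb: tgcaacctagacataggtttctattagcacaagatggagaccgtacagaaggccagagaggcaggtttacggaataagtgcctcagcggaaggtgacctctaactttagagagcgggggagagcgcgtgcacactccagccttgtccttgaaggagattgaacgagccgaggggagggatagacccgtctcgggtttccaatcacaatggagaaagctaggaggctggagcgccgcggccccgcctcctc

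The Ldha window held 3 stretches of ACGTG on either strand, starting 145, 48 and 34 bases before the start site, the farther 2 of which were whole E-boxes, and 2 GC boxes. The window of the other annotated Ldha start (chr7:46846832-46847081) held neither motif, and nor did the Ldhb window.

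Slc16a1 made up 87.7, 88.1 and 85.9% of the summed TPM of 4 monocarboxylate transporters (Slc16a1, Slc16a3, Slc16a7 and Slc16a8) in WT and 77.8, 82.5 and 78.9% in Npc1-/-. The Npc1-/- mice lay below the WT mice without overlap, with means of 87.3% ± 1.17 and 79.7% ± 2.46 (SD, n = 3) and a difference of −7.54 percentage points (exact permutation p = 0.1, adjusted 0.3). The other 3 carriers were low, at means of 2.56, 3.65 and 4.79 in WT and 2.49, 3.51 and 4.68 in Npc1-/-, for log2 differences of −0.03, −0.02 and −0.00. The remaining shares overlapped between the genotypes. Slc2a1 took 99.4% of itself plus Slc2a3, the neuronal glucose transporter, in WT and 98.8% in Npc1-/- (exact permutation p = 0.2), and Hk1 took 93.5 and 94.1% of the hexokinases (p = 0.7 by the same permutation test). Pfkm took 41.6 and 43.8% of phosphofructokinase (exact permutation p = 0.5), and Aldoa took 48.7 and 52.3% of aldolase (exact permutation p = 0.7).

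**Figure D4:**
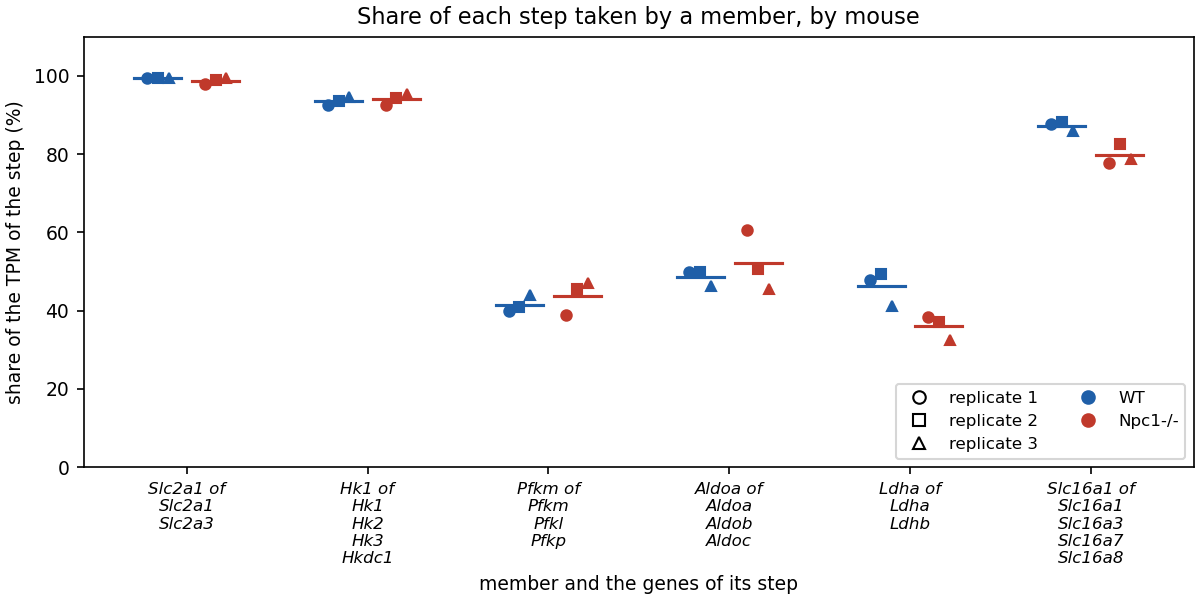
Share of the summed TPM of a step taken by Slc2a1, Hk1, Pfkm, Aldoa, Ldha and Slc16a1 in each library, in percent, with a marker for each mouse and a line for the group mean (n = 3). The Ldha share (46.2 and 36.0%) and the Slc16a1 share (87.3 and 79.7%) do not overlap between WT and Npc1-/-, and the other 4 shares do.

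The order of the 10 genes by level differed between the genotypes in the place of Slc2a1 and in that of Ldha beside Pgk1. In WT it stood behind Gapdh and overlapped in range with Aldoa, followed by Pkm, then Ldhb, Ldha and Pgk1 (neighbours in this trio overlapped), Slc16a1, and last Hk1 and Pfkm, which overlapped. In Npc1-/- Slc2a1 stood between Ldhb and Pgk1, and its range overlapped with those of Pkm, Ldhb, Pgk1 and Ldha. There Pgk1 lay above Ldha without overlap, and Slc16a1, Hk1 and Pfkm overlapped with their neighbours at the bottom. The 10 genes together made up 0.207 to 0.250% of all TPM in WT and 0.147 to 0.188% in Npc1-/-. After division by the size factors their sum was 1931 to 1989 in WT and 1705 to 2016 in Npc1-/-, with overlapping groups.

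Of 16 isozymes and paralogs of the same steps, 9 passed the filter and none was called in limma. At an unadjusted p below 0.05 there were 2, where 22.2% of all genes tested lay below that value. All 9 had log2 differences below 0, with a median of −0.09. Pfkp, the platelet-type phosphofructokinase subunit, was at 30.6, 29.4 and 29.6 in WT and at 24.5, 22.1 and 23.5 in Npc1-/-. Its groups lay well apart, with a log2 difference of −0.35 (SE 0.08, limma adjusted p = 0.0709). Pfkl, the liver-type subunit, differed by −0.24 (limma adjusted p = 0.214), again without overlap. Aldoc, the aldolase of astrocytes, differed by −0.21 and Hk3 by −0.38, and Slc2a3 and Hk2 by −0.03 and −0.09, all with overlapping groups.

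The rest of glucose metabolism was described with 8 further lists. Over all lists outside the 10 genes, 72 of 81 listed genes were tested and 0 were called in limma. Of those tested, 16 had an unadjusted p below 0.05, where 22.2% of all genes tested lay below that value. The median log2 difference was −0.03. Counts of tested genes with differences above and below 0 on scaled TPM follow, beside the largest differences each way. On that scale 7780 of all 15245 genes tested were above 0 and 7465 below. The signs and medians of these lists are not given for TPM as deposited, where the median of all genes was −0.33. Among 9 other glycolytic enzymes, 6 were above and 3 below 0 (median 0.10). The neuronal enolase Eno2 differed by 0.60 (limma adjusted p = 0.195) and the muscle enolase Eno3 by 0.43, and the phosphoglycerate mutases Pgam2 and Pgam1 by −0.18 and −0.05. On scaled TPM, neuron markers were also higher, with 10 of 11 above 0 and Nefl and Nefm called. Their summed level was 110 to 151 in WT and 174 to 214 in Npc1-/-, but these sums overlapped on TPM as deposited. The part of neuron RNA in Eno2 was not tested.

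Of the enzymes that set fructose-2,6-bisphosphate, the activator of phosphofructokinase, 4 of 5 were tested, with Pfkfb2 at 0.17, Pfkfb3 at 0.03, Pfkfb4 at −0.19 and Tigar at −0.03 on the log2 scale. The 14 genes of pyruvate entry and oxidation had 8 differences above and 6 below 0 (median 0.03). The mitochondrial pyruvate carrier genes Mpc1 and Mpc2 differed by 0.18 and 0.17, and Pdk4 and Pdk1, kinases that switch off pyruvate dehydrogenase, by −0.59 and −0.45. The 7 pentose phosphate genes had 5 above and 2 below 0 (median 0.08), with Pgls at 0.24, G6pdx, which encodes the entry enzyme, at 0.17, Pgd at −0.06 and Rpe at −0.05.

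Glycogen metabolism had the lowest median of the lists with more than 2 tested genes, −0.27 over 8 genes, 6 of them below 0. The phosphorylase genes Pygl and Pygb, whose products break glycogen down, differed by −0.56 and −0.35 (limma adjusted p of 0.141 and 0.103), while Gyg, which encodes the glycogenin primer, and Ugp2 differed by 0.26 and 0.07. Glycogen is known as an astrocyte store, and 7 of the 8 astrocyte markers were below 0 too, with geometric mean levels of 48.5 to 56.5 in WT and 28.2 to 46.7 in Npc1-/-, and their part in these values was not tested.

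Among 11 hypoxia and Myc regulators, 5 were above and 6 below 0 (median −0.05). Epas1, which encodes HIF-2 alpha, the oxygen-regulated factor of endothelium, was at 164, 166 and 174 in WT and at 76.1, 88.0 and 114 in Npc1-/-. All Npc1-/- mice were far below the WT mice, with a log2 difference of −0.88 (SE 0.15) and a limma adjusted p of 0.0503. On TPM as deposited Epas1 crossed the threshold at −1.25 (limma adjusted p = 0.00991). The geometric mean of the endothelial markers differed by −0.75 on scaled TPM, and their part in Epas1 was not tested. The glucose-sensing factor gene Mlxipl differed by −0.49, and the prolyl hydroxylase genes Egln2 and Egln3 by 0.11 and 0.02. Of 10 hypoxia-responsive genes outside glycolysis 9 were tested, with 3 above and 6 below 0 (median −0.09). Adm, which encodes adrenomedullin, differed by −0.67 and Ankrd37 by −0.42, whereas Ndrg1, known for its expression in myelinating cells, and Vegfa differed by 0.51 and 0.17.

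**Figure D5:**
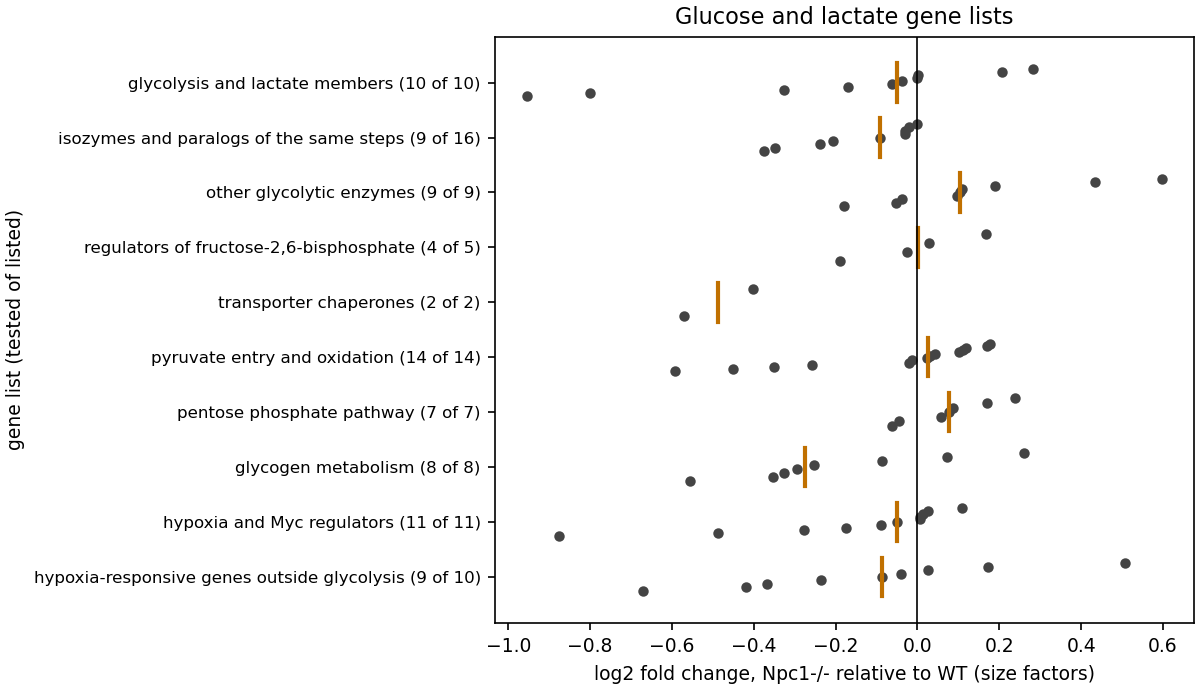
Log2 fold change on scaled TPM, Npc1-/- relative to WT, of each tested gene (points) in the 10 glycolysis and lactate genes and in 9 further lists, with the median of each list as a coloured bar. The list medians run from −0.49 for the 2 transporter chaperones to 0.10 for the other glycolytic enzymes.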

How the data were processed

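O4-microbead-purified cells from P16 mouse brain were measured by poly(A) RNA-seq, with 3 libraries per genotype, grouped by the genotype in the sample labels. The authors deposited TPM and FPKM for 55492 genes. FPKM was used only for depth and as an alternative. The submitters' processing notes name cutadapt 2.3, STAR 2.7.8a, RSEM 1.3.3 and GRCm38 (mm10), whereas the methods of the study name bbduk, STAR, featureCounts and DESeq2. Which route gave the deposited TPM and FPKM, and whether strand was used, is not given in the sources used here. A raw count table was not used here, so no count test was run. Estimated fragments per library (40500000 to 50000000) were read off the step size of low FPKM values, of which 80.4 to 84.1% lay within 0.15 of a whole fragment.

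TPM was divided by median-of-ratios size factors, 0.5 was added and log2 taken. The 15245 genes averaging 0.5 TPM or more entered a limma 3.58.1 fit (R 4.3.3, eBayes with trend) with genotype as its single factor. A call needed a Benjamini-Hochberg adjusted p below 0.05 and an absolute log2 difference of at least 0.1. Shares within a step were compared by exact two-sided permutation over the 6 libraries. The model was tested on simulated data. Separate mice gave separate libraries. The counting CV covers counting error only.

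Positions came from GENCODE M21, which held 55227 of the 55492 identifiers, and promoter windows from RefSeq. Pseudogene copies were found by description and with BLAST+ 2.17.0. Python 3.11.15 was used for tables and plots. The genes named were the 10 genes, their isozymes past the filter, the called genes or else the 2 largest differences each way of each further list, the 5 genes of nearest profile, and Npc1. Markers were summarised as lists, and those named singly, like the copies Gm13394 and Gm5537, were chosen after their values were seen. The genes and lists were chosen with earlier results of these data known. The alternatives were quantile normalization, FPKM, unscaled TPM as deposited, a pseudocount of 0.1 or 1, other filters, limma without trend or with robust estimation, X, Y and mitochondrial genes left out, copies summed, a replicate block and each library left out. A transcript length curve (span 0.3) was removed as a further alternative. Copies found by sequence, the overlap of groups on other scalings and the ratios to endothelial markers were added after seeing the data.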

Additional observations from a re-analysis of the deposited data

How the results depend on the processing

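With 3 mice per genotype an exact test cannot go below 0.1, and the calls depended on scaling. None of the 10 genes was called in limma on scaled TPM, nor with any library left out (0 in each), and 2 were called on TPM as deposited and 2 with the replicate block (Slc2a1 and Slc16a1 in both). With the replicate number as a block, their log2 differences stayed at −0.95 and −0.80 with limma adjusted p of 0.0280 and 0.0485. The numbers mark different mice, and the deviations of same-numbered mice correlated by 0.414, 0.0602 and 0.326, all above 0. Mice of different numbers were not compared in this way, so these values have no background beside them. Whether same-numbered mice shared a litter or a batch is not given by the labels and was not tested. The main design held genotype alone because the study's own design had condition as its main factor, and the calls of Slc2a1 and Slc16a1 depended on that choice. On TPM as deposited these genes differed by −1.33 and −1.17, where all genes had a median of −0.33.

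The count of all genes called, 124 on scaled TPM, was 924 on TPM as deposited, 239 after quantile normalization, 21 with no filter, 447 at a mean TPM of at least 5, 42 without trend and 2011 (13.2%) with the block, and 4 to 486 with each library left out (4 without Npc1-/- replicate 2, 486 without Npc1-/- replicate 3, the library with Xist RNA, and 8 to 19 without any other). The cause of these differences was not tested. In the further lists, 0 calls became 4 on TPM as deposited (Adm, Bsg, Ddit4 and Epas1), 5 with the block (Bsg, Eno2, Epas1, Ndrg1 and Pfkp) and 1 (Epas1) after quantile normalization, at a mean TPM of at least 5 and with X, Y and mitochondrial genes left out, and ranged from 0 to 1 with a library left out (Epas1 without Npc1-/- replicate 3).

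The median of the 10 genes, −0.05, was −0.42 on TPM as deposited and −0.23 after quantile normalization. On those scales Gapdh reversed to −0.17 and −0.13 and Pgk1 to −0.37 and −0.14, and Ldhb reversed to −0.091 on TPM as deposited, while Hk1, Pfkm, Aldoa and Pkm moved to −0.41, −0.54, −0.37 and −0.44 and to −0.091, −0.21, −0.24 and −0.27. With the transcript length curve removed no member was called, and Gapdh moved from 0.21 to 0.097, Pfkm to −0.11 and Slc16a1 to −0.68. Differences near 0 changed sign when a library was left out: Aldoa ranged from −0.085 to 0.056, Pgk1 from −0.014 to 0.026 and Hk1 from −0.12 to 0.033, and Pgk1 was −0.00050 with copies by description added. Slc2a1 ranged from −1.26 to −0.60 (lowest in size without Npc1-/- replicate 1), Slc16a1 from −1.02 to −0.55 (without WT replicate 1), Pfkm from −0.28 to −0.050 (without Npc1-/- replicate 1), Ldha from −0.48 to −0.22 and Ldhb from 0.22 to 0.33. The differences in share ranged from −12.7 to −8.43 percentage points for Ldha and from −8.92 to −6.57 for Slc16a1.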

Other observations

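The mean profile of the 10 genes over the 6 libraries, each gene centred on the log2 scale, was 0.14, 0.08 and 0.06 in WT replicates 1, 2 and 3 and −0.21, −0.09 and 0.01 in Npc1-/- replicates 1, 2 and 3. Slc2a1 and Slc16a1, at log2 differences of −0.95 and −0.80, weighed most in that mean profile, and the other genes lay between −0.33 and 0.28. The 5 genes nearest to the mean profile by root mean square distance, of 9026 candidates, were Ccdc117 (0.0234), Sav1 (0.0333), Zfyve9 (0.0342), Suclg2 (0.0342) and Flii (0.0352). None of these passed the test in limma, with log2 differences of −0.20, −0.15, −0.17, −0.14 and −0.19. Suclg2 encodes a subunit of a citric acid cycle enzyme and Sav1 a scaffold of the Hippo pathway.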
